A study of Mus musculus with 28 samples.

Results

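The regions described here carry histone H3 trimethylated at lysine 4 (H3K4me3) but, by the criteria used, neither acetylation at lysine 27 (H3K27ac) nor replicated coverage by the repressive marks H3K27me3 and H3K9me3. They were found by joining bases covered in at least 3 of the 4 H3K4me3 peak lists on chromosomes 1 to 19, closing gaps of up to 1 kb, and keeping regions of at least 200 bp and under 4000 bp. A region was dropped if an H3K27ac peak of replicate 3 or 4 overlapped it, these being the files whose names carry the abbreviation RAS. It was also dropped if it shared a base with bases covered in at least 2 of 4 H3K27me3 lists or at least 2 of 4 H3K9me3 lists. This left 542 regions, called mark-poor regions below, which were 4.39% of all 12337 H3K4me3 regions and 4.66% of the 11642 regions of the same width range.

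The libraries came from mouse lung tumours. Per the labels, tumours formed after Ad-CMV-Cre treatment of K-RasLSL-G12D mice or of K-RasLSL-G12D;Mll4fl/fl mice, so all animals carried the mutant K-Ras allele held silent by a stop cassette until Cre removed it, and some also carried floxed Mll4. Cre was driven by the CMV promoter, which is active in many cell types, and pieces of tumour tissue were used, with all their cell types. Chromatin immunoprecipitation and sequencing (ChIP-seq), which pulls down DNA with an antibody to a histone modification, was done for 6 marks in 4 libraries each, and 4 input samples were not used here. Neither the genotype nor the animal behind a library is given in the labels, which also give no age or time after Cre, so no genotypes were compared. P-values below therefore measure the spread between libraries, which may be technical or may include genotype. In tumour pieces, a mark present in few cells and a weak mark in all cells cannot be told apart.

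H3K4me3 marks the start sites of genes and is written by SET1 and MLL family enzymes, mainly at CpG-rich promoters. Active promoters usually also carry H3K27ac, written by CBP and p300, and lie next to H3K79me2, which DOT1L places along the first part of transcribed genes. H3K4me1, for which MLL3 and MLL4 are major writers, marks enhancers and the shoulders of active promoters. Promoters with both H3K4me3 and H3K27me3, the mark of the Polycomb repressive complex, are called bivalent and are typical of silent developmental genes. The mark-poor regions, whose choice did not use H3K4me1 or H3K79me2, are set here beside 2 other classes of the same width range. Acetylated regions (9813) had an H3K27ac peak of replicate 3 or 4 and met the same limits on repressive marks. H3K27me3 regions (793) had no such H3K27ac peak, no base covered in at least 2 H3K9me3 lists, and a base covered in at least 2 H3K27me3 lists.

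The libraries differed in how much they called. On chromosomes 1 to 19 the H3K4me3 lists held 10429 to 29241 peaks and covered 3.12 to 32.3 Mb, with replicate 1 the smallest in both. The H3K27ac lists of replicates 1 and 2 covered 19.9 and 22.1 Mb, against 114.5 and 112.4 Mb in replicates 3 and 4. H3K27me3 replicate 3 covered 102.3 Mb, while the other H3K27me3 lists covered 10.8 to 32.4 Mb. Read depth is not known for any library, because the files hold peaks and no read counts.

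The absence of other marks was not strict, because the rule used 2 of the H3K27ac lists and allowed repressive peaks found in a single list. An H3K27ac peak of replicate 1 or 2 overlapped 47 of the 542 regions, which is 8.67%, against 70.8% of all H3K4me3 regions of the width range. An H3K27me3 peak was present in exactly 1 list at 156 regions (28.8%), against 4.76% of all H3K4me3 regions of the width range, and 3 more had peaks in 2 lists that shared no base in the region. An H3K9me3 peak of any list overlapped 6 regions (1.11%), against 3.98% of all. H3K27me3 and H3K9me3 chose the regions, so nothing is read from the shares of these marks. With every H3K27me3 and H3K9me3 list counted against a region, 380 regions stayed, and with all 4 H3K27ac lists counted, 495.

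The rule used H3K4me3 itself, so the width and strength of that mark are given as a description. Mark-poor regions had a median width of 931.5 bp, with the middle 50% between 630 and 1254 bp. The median was 1796 bp in acetylated regions and 1222 bp in H3K27me3 regions. Only 16 mark-poor regions (2.95%) reached 2000 bp, against 39.2% of acetylated regions. The widest measured 3029 bp, so the upper limit on width removed none, while 43 regions met every other criterion but were shorter than 200 bp.

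The H3K4me3 peaks at these regions also had low scores, the score being the peak caller's own confidence value. The median of the highest score per region was 264.0, 464.9 and 200.6 in replicates 2, 3 and 4. In acetylated regions it was 918.8, 2368 and 931.8 in the same libraries. Each score was ranked among all 12337 regions of its library, and the mean percentile over replicates 2 to 4 had a median of 15.9 in mark-poor regions. This was close to the 16.9 of H3K27me3 regions and far below the 55.6 of acetylated regions. The lowest 25% of all regions by this percentile held 398 of the 542 mark-poor regions (73.4%), and the highest 25% held 4.

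**Figure D1:**
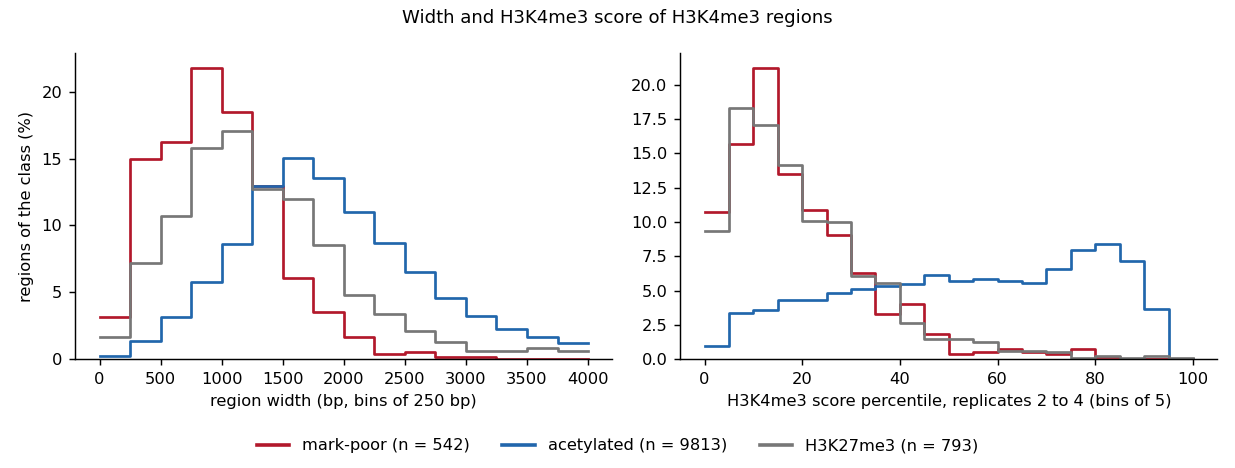
Left, share of regions of each class (%) by width in bins of 250 bp; right, by mean H3K4me3 score percentile over replicates 2 to 4 in bins of 5. Mark-poor regions (red) are the narrowest class, with a median of 931.5 bp against 1222 bp for H3K27me3 regions (grey), and both have low score percentiles, while acetylated regions (blue) are wider and spread to high percentiles.

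H3K4me3 replicate 1 detected few of the mark-poor regions. Peaks overlapped 90 regions (16.6%) in replicate 1, 539 in replicate 2, 541 in replicate 3 and 537 in replicate 4. Replicate 1 stood far below the other 3, which hardly differed. It had a peak at 38.2% of all H3K4me3 regions of the width range, and at 39.1% of acetylated regions. The 81 mark-poor regions with a peak in all 4 lists had a median width of 1305 bp, against 896 bp for the 461 with a peak in 3. Without replicate 1 of every mark the rule gave 556 regions.

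The strongest members show that the class holds some large H3K4me3 peaks. Ranked by mean percentile over the 4 libraries among regions with a peak in all 4, the first was chr16:20620077-20622848 (mm9), 2772 bp wide. Its highest H3K4me3 scores were 175.0, 1267, 3100 and 1653 in replicates 1 to 4. H3K4me1 peaks of 4 of 4 libraries overlapped it, no H3K79me2 peak did, and the nearest H3K27ac peak of replicates 3 and 4 lay 7.35 kb away. The second, chr9:68500980-68503585, scored 65.8, 2859, 2826 and 2434 and stood 633.3 kb from the next H3K4me3 region. It had an H3K27ac peak in replicate 1 and H3K4me1 peaks in replicates 1 and 3.

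The next members by rank differed in their company. The third, chr12:100138481-100139806, scored 268.3, 1344, 2437 and 1629 and carried 1 H3K4me1 peak, in replicate 2, with no H3K79me2. The fourth, chr5:118426316-118428042, scored 89.0, 2236, 2359 and 1234. The fifth, chr19:42006857-42009061, scored 56.2, 1492, 3100 and 1215. Both of the last lay in H3K79me2 peaks of 4 of 4 libraries, and H3K4me1 was present in 1 library at the former and in 4 at the latter. The first and the fifth shared the score of 3100 in replicate 3, at percentile 82.5, as did chr5:8621870-8623447, named below. That tied value does not rank these regions apart. Replicate 1 gave the lowest score at all 5 regions. Each of them had an H3K4me1 peak in at least 1 library, as did 41.3% of mark-poor regions and 76.4% of all H3K4me3 regions of the width range.

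The first test asked whether mark-poor regions carried H3K79me2, a mark of transcribed genes that took no part in their choice. H3K79me2 peaks overlapped 9.23%, 8.30%, 5.72% and 4.80% of mark-poor regions in replicates 1 to 4 (50, 45, 31 and 26 regions). The mean was 7.01% ± 2.09 (SD, n = 4 libraries), against 63.3% ± 4.19 of acetylated regions. The highest value of the mark-poor regions lay below the lowest of the acetylated regions, 58.0%. The difference was -56.3 percentage points ± 2.47 (SD of 4 differences), lower in 4 of 4 libraries. In an exact two-sided sign-flip permutation test its p was 0.125, the smallest that 4 libraries allow, and 0.125 after Benjamini-Hochberg adjustment over 5 tests, so no test of this kind could pass 0.05. Among regions in the lowest 25% of H3K4me3 score, an alternative chosen after the data were seen, the difference was -15.7 points, and it was -28.8 with no gap closed and -30.8 among peaks at or above the median score of their file.

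Against H3K27me3 regions, mark-poor regions had the higher share of H3K79me2. Peaks overlapped 3.03%, 0.631%, 0.504% and 0.631% of H3K27me3 regions in replicates 1 to 4, each below the mark-poor value of the same library. The difference of 5.81 points ± 1.49 (SD of 4 differences) had the same sign in 4 of 4 libraries, with an exact sign-flip p of 0.125 and an adjusted p of 0.125. It was 20.4 points without replicate 2 of every mark, 21.9 without replicate 3 and 17.1 without replicate 4, where bases had to be covered in H3K4me3 replicate 1 and fewer lists of the other marks were used. It was also 19.5 points with H3K4me3 required in all 4 lists, 29.2 with no gap closed and 36.3 among peaks at or above the median score of their file.

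Placed against H3K79me2 domains, made of bases covered in at least 3 of 4 lists with gaps of up to 1 kb closed, most mark-poor regions lay far away. A domain held 9 regions entirely and an edge crossed 21, so that 30 regions (5.54%) touched one, against 51.4% of all 11642 H3K4me3 regions that shared a base with such coverage. A further 43 lay within 5 kb of a domain and 469 (86.5%) farther off. Of the acetylated regions, 53.7% lay across a domain edge and 24.7% lay farther than 5 kb. The median distance to a domain was 46.6 kb for mark-poor regions and 76.7 kb for H3K27me3 regions. No H3K79me2 peak of any list overlapped 481 mark-poor regions (88.7%), a state found in 34.2% of all H3K4me3 regions.

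**Figure D2:**
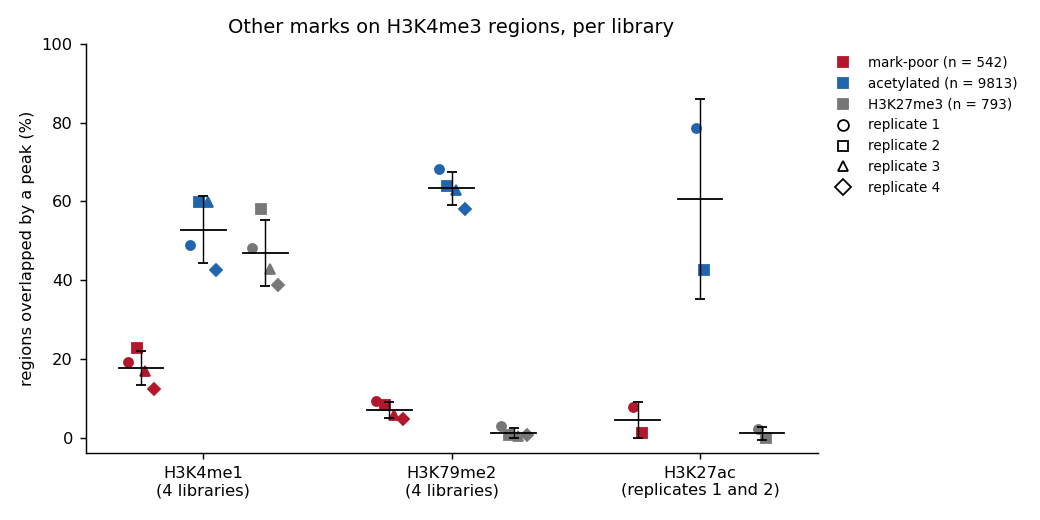
Share of regions (%) overlapped by a peak of H3K4me1, H3K79me2 or H3K27ac, one point per library (shape gives the replicate), with the mean (bar) and SD (whiskers) for mark-poor regions (red), acetylated regions (blue) and H3K27me3 regions (grey). Mark-poor regions lie below acetylated regions in each library plotted; H3K27ac is shown for replicates 1 and 2, which the rule did not use.

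The same measure for H3K4me1 gave 19.2%, 22.7%, 17.0% and 12.4% of mark-poor regions in replicates 1 to 4 (104, 123, 92 and 67 regions). The mean was 17.8% ± 4.33 (SD, n = 4), against 52.9% ± 8.47 in acetylated regions and 46.9% ± 8.36 in H3K27me3 regions. The ranges did not overlap, since the lowest values of those classes were 42.7% and 38.7%. The difference from acetylated regions was -35.0 points ± 6.17 and that from H3K27me3 regions -29.1 points ± 4.37 (SD of 4 differences each). Both were negative in 4 of 4 libraries, with exact sign-flip p-values of 0.125 and adjusted values of 0.125.

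The difference from acetylated regions depended on where in the region H3K4me1 was looked for. In a window of 500 bp around the centre it was -1.53 points (exact sign-flip p 0.375, adjusted 0.375), whereas that from H3K27me3 regions was -23.6 points there. For acetylated regions, where peaks had to cover at least 50% of the region, the difference was 0.319 points, the opposite sign (exact sign-flip p 0.625, adjusted 0.625). It was -26.3 points among regions of at least 1000 bp and under 2000 bp, -16.2 with no gap closed, -12.0 among peaks at or above the median score of their file and -11.8 in the lowest 25% of H3K4me3 score. Wherever a base had to be covered in H3K4me3 replicate 1 it was small or positive, at -0.372 with all 4 lists required and 1.07, 4.26 and 2.91 without replicates 2, 3 and 4 of every mark. The difference from H3K27me3 regions kept its sign in these settings but was -1.87 points among peaks at or above the median score (exact sign-flip p 0.750, adjusted 0.750), where 125 H3K27me3 regions qualified. It was also -14.1 with no gap closed, -12.8 with at least 50% of the region covered and -17.8 without replicate 2 of every mark.

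Coverage around region centres showed where the classes differed. At the centre, H3K4me1 peaks covered 5.12% ± 1.29 of mark-poor regions, 4.20% ± 0.923 of acetylated regions and 21.2% ± 3.93 of H3K27me3 regions (SD, n = 4). At 1 kb downstream in genome coordinates the values were 2.35% ± 1.06, 17.9% ± 3.65 and 7.94% ± 3.13, and at 1 kb upstream they were 2.63% ± 1.06, 17.6% ± 3.47 and 8.83% ± 1.96. Acetylated regions thus had a deep dip of H3K4me1 between high shoulders, while the mean over H3K27me3 regions was highest at the centre. Mark-poor regions were low throughout. Their coverage was 5.17% ± 1.20 at 300 bp upstream, 4.38% ± 1.23 at 100 bp upstream and 6.37% ± 1.37 at 300 bp downstream. The value at 100 bp upstream was below both others in replicates 2, 3 and 4, and in replicate 1 it equalled that at 300 bp upstream. At 200 bp upstream, replicate 2 stood at 7.01%, above its 6.46% at 300 bp upstream. Replicate 1 was lower at 200 bp upstream, at 2.77%, than at 100 bp upstream, at 3.69%. No dip common to the 4 libraries is therefore read from these values. H3K4me3 itself, which chose the regions, covered 8.76% of mark-poor and 41.2% of acetylated regions at 1 kb downstream, so that position lay outside most of the narrower mark-poor regions. At 10 kb the mark-poor regions were at 1.20% ± 0.885 and acetylated regions at 4.90% ± 2.34. H3K79me2 over mark-poor regions had no maximum at the centre, where the mean was 5.17% (3.51% to 7.20% over the 4 libraries). Within 10 kb on either side the mean ran from 4.11% ± 1.38 at 0.6 kb upstream to 6.50% ± 1.52 at 2.6 kb downstream. Acetylated regions went from 46.7% ± 10.3 at the centre to 21.4% ± 2.46 at 10 kb downstream.

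**Figure D3:**
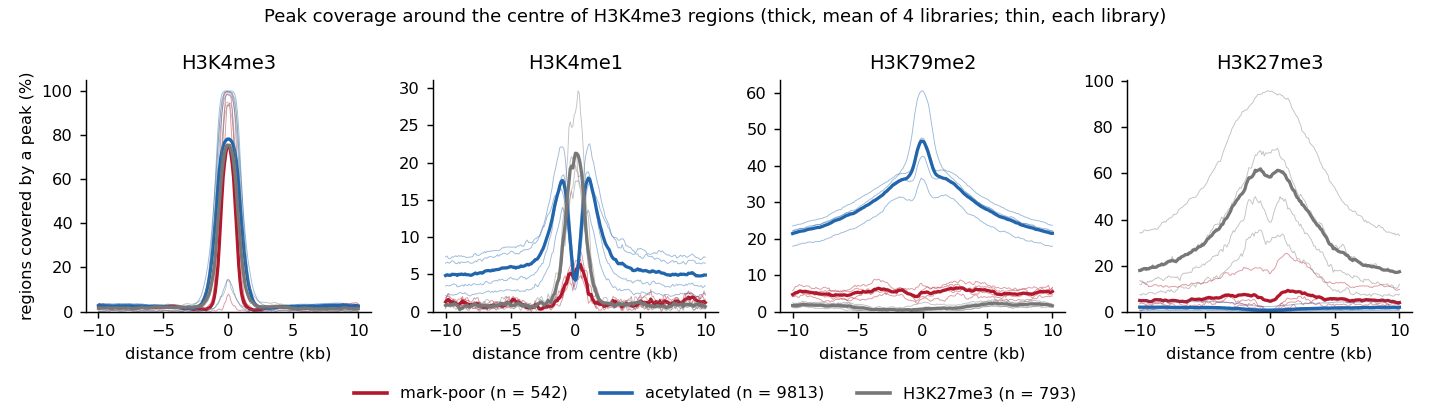
Share of regions (%) covered by a peak at each distance from the region centre (kb), in steps of 100 bp, for 4 marks with a vertical scale each; thick lines are means over 4 libraries and thin lines single libraries. Mark-poor regions (red) have low H3K4me1 throughout, without the high shoulders of acetylated regions (blue), and H3K79me2 between 4.11% and 6.50% throughout, with no maximum at the centre.

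Counted per region, 318 mark-poor regions (58.7%) had no H3K4me1 peak in any library, against 23.6% of all H3K4me3 regions. A peak in at least 3 libraries was found at 47 (8.67%), against 41.7% of all. H3K4me1 was present in at least 1 library at 185 regions that had no H3K79me2 peak (34.1%), against 18% of all H3K4me3 regions. These shares also depend on how many regions lacked H3K79me2, which was 481 of 542 mark-poor regions and 3976 of all 11642. Among regions without H3K79me2, H3K4me1 was present at 185 of 481 mark-poor regions and 2099 of 3976 of all. The share was thus lower in mark-poor regions. Within the class, H3K4me1 and H3K79me2 tended to be found at the same regions. H3K4me1 peaks overlapped 50%, 50%, 50% and 40% of the 30 regions with H3K79me2 in replicates 1 to 4. Of the 512 regions without H3K79me2 the shares were 17.4%, 21.1%, 15.0% and 10.7%. Over all H3K4me3 regions of the width range they were 46.6%, 57.0%, 55.4% and 40.5%, so the 30 regions lay near the share of all regions and the other 512 below it. The difference between the 30 and the 512 regions, 31.4 points ± 2.88 (SD of 4 differences), was positive in 4 of 4 libraries, with an exact sign-flip p of 0.125 and an adjusted p of 0.125. The 30 regions had a median width of 1067 bp and a median H3K4me3 percentile of 25.8, against 922.5 bp and 15.5 for the others. The difference was 27.5 points among regions of at least 1000 bp and under 2000 bp and 21.9 points in the lowest 25% of H3K4me3 score. It was 9.81 points with at least 50% of the region covered and 49.7 without replicate 2 of every mark.

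The regions named next were picked for the H3K79me2 around them. The member with the most bases covered in all 4 H3K79me2 lists within 10 kb on either side was chr18:34407045-34407610, with 20263 bp. Its H3K4me3 scores were 94.7, 251.9 and 85.9 in replicates 2, 3 and 4, and replicate 1 had no peak. The next were chr11:100792764-100793241 with 18167 bp and chr13:44935476-44936306 with 15942 bp. All 3 carried H3K4me1 in 3 of 4 libraries. The last scored highest in H3K4me3 replicate 1, at 635.0, against 171.3, 141.4 and 118.7 in replicates 2 to 4.

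H3K27ac replicates 1 and 2 took no part in the choice, which used the same mark in replicates 3 and 4. Only the names of the latter carry the abbreviation RAS, and the genotype of replicates 1 and 2 is not given. Replicates 1 and 2 also covered 19.9 and 22.1 Mb, against 114.5 and 112.4 Mb. Genotype, coverage and replicate number cannot be told apart here, and their part was not tested. Peaks overlapped 42 mark-poor regions (7.75%) in replicate 1 and 7 (1.29%) in replicate 2. The mean of both shares, 4.52%, was 14.5% among peaks at or above the median score of their file, 8.48% with no gap closed and 0.738% with at least 50% of the region covered. The same libraries overlapped 78.7% and 42.6% of acetylated regions and 2.27% and 0% of H3K27me3 regions. All 3 classes were chosen on this mark in the other libraries, so these shares are a description, and 2 libraries allow no p below 0.5. Of the 42 regions of replicate 1, 4 shared bases with H3K79me2 covered in at least 3 lists, and of the 7 of replicate 2, 5 did, against 30 of the 542 mark-poor regions (5.54%) and 51.4% of all H3K4me3 regions. A peak in both replicates was found at 2 mark-poor regions, against 33.9% of all. They were chr9:113702096-113702490 and the region on chromosome 11 named above, and both lay in H3K79me2 peaks of at least 3 libraries.

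The nearest H3K27ac peak of replicates 3 and 4 lay at a median distance of 26.3 kb from a mark-poor region, with the middle 50% between 9.30 and 62.6 kb. It was within 1 kb at 17 regions, within 5 kb at 76 and beyond 100 kb at 93 (17.2%). H3K27me3 regions lay farther, with a median of 45.5 kb and 24.1% beyond 100 kb. The next H3K4me3 region of any class lay 38.7 kb away in the median, against 29.9 kb for acetylated regions and 57.7 kb for H3K27me3 regions. Mark-poor regions stood between the other classes in this last distance.

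H3K27me3 lay close to a part of the class. The nearest base covered in at least 2 H3K27me3 lists was within 1 kb of 99 mark-poor regions (18.3%) and within 5 kb of 173 (31.9%). For acetylated regions, held to the same limit on overlap, the shares were 2.08% and 8.30%. Both sets were chosen on H3K27me3, so these shares are a description.

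**Figure D4:**
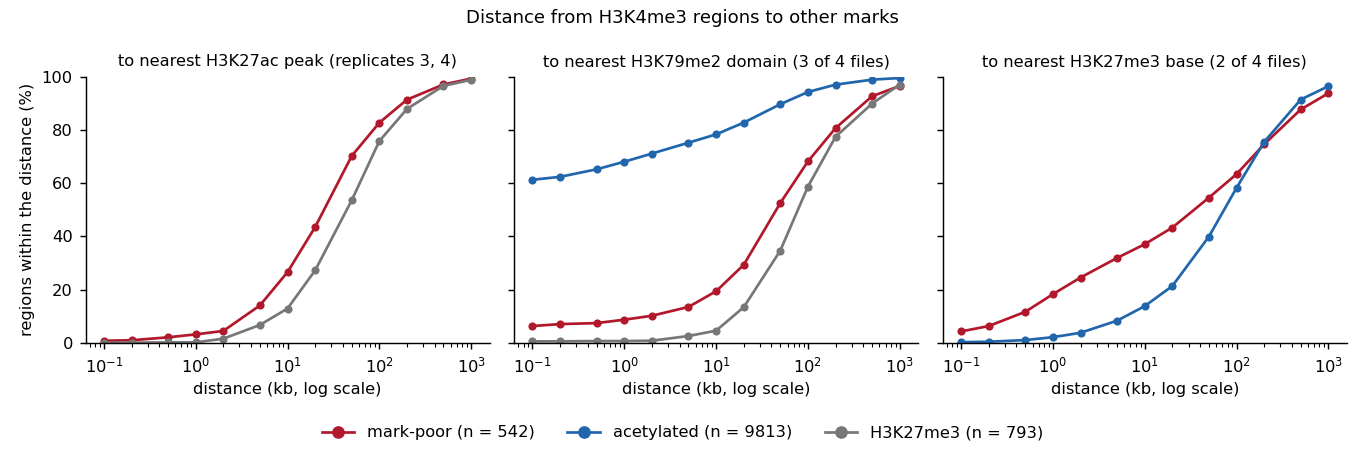
Share of regions (%) with the named mark within a distance (kb, log scale), measured from the edge of the region, for mark-poor regions (red), acetylated regions (blue) and H3K27me3 regions (grey); a class is left out of the panel of the mark that defines it. Mark-poor regions run between the other 2 classes for H3K79me2 up to 100 kb and have more H3K27me3 within 10 kb than acetylated regions, at 37.1% against 13.8%.

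The H3K27me3 list of replicate 3 overlapped 144 mark-poor regions (26.6%), against 13.9% of all H3K4me3 regions, whereas replicates 1, 2 and 4 overlapped 7, 3 and 8. In 141 of the 144 no other H3K27me3 list had a peak, which was so at 26.0% of the class and 4.27% of all H3K4me3 regions. That list also overlapped 3.68% of acetylated regions. At the 144 regions H3K4me1 peaks were found in 27.8%, 31.9%, 25.7% and 20.8% in replicates 1 to 4, against 16.1%, 19.3%, 13.8% and 9.30% of the other 398. H3K79me2 went the other way, with means of 2.43% ± 2.16 and 8.67% ± 2.21 (SD, n = 4). These splits were chosen after the data were seen and were not tested.

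No peak of any other mark in any list overlapped 206 mark-poor regions, 38.0% of the class. They were 1.77% of all H3K4me3 regions of the width range, and by the rule such a region can only be mark-poor, so nothing is read from the comparison. These regions had a median width of 778 bp and a median percentile of 14.0. The strongest with a peak in all 4 H3K4me3 libraries was chr5:8621870-8623447, which scored 93.2, 1336, 3100 and 530.5 in replicates 1 to 4. The next were chr9:123168585-123170339, with 96.9, 957.2, 1670 and 833.4, and chr6:95067542-95068971, with 431.5, 814.7, 1610 and 701.1. All 3 measured 1430 to 1755 bp and lay 18.4 to 42.8 kb from the nearest H3K27ac peak of replicates 3 and 4.

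Cases at the limits of the rule show how fine the choice was. The narrowest member, chr10:38891389-38891588, measured 200 bp, and the widest region that failed on width alone, chr5:109278824-109279019, measured 196 bp. The member closest to an H3K27ac peak of replicates 3 and 4, chr2:4933513-4933760, was 67 bp away. The acetylated region with the least such overlap, chr1:97562983-97564284, shared 72 bp with a peak of replicate 3. The H3K27me3 region with the least overlap, chr19:4698012-4698773, shared 6 bp with bases covered in 2 H3K27me3 lists. The widest member was chr13:21258990-21262018, with H3K4me3 scores of 1598, 2652 and 1198 in replicates 2, 3 and 4, no peak in replicate 1 and no peak of another mark in any list.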

How the data were processed

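The authors deposited 1 peak list for each of 24 antibody libraries, with chromosome, start, end, name and score. Names of peaks in the lists include MACS, per the file contents, and per the submitters' processing notes CASAVA 1.7, Bowtie, MACS and deepTools were used and the build was mm9. Versions of the other tools, calling settings and controls are not given in the sources used here. The deposited score is the authors' own value per peak, with a lowest value of 50 to 50.04 in every list, and was used only to rank regions within a library. A deeper library can yield more and wider peaks, and depth is unknown.

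Samples were grouped by mark, with replicate numbers from the titles. No 2 lists were identical. Positions are counted from 1 on mm9. A gene table of assembly GRCm38 was at hand, but peaks pass its last gene on 10 chromosomes, so no gene was assigned, planned gene lists were not counted and no sequence is printed. Members, classes and lists were chosen with earlier results of these data known. Regions were named by fixed rules: the 5 highest by mean score percentile among members in 4 H3K4me3 lists, the 3 highest without other marks, the 3 with the most H3K79me2, up to 3 with H3K27ac in replicates 1 and 2 (2 existed), and those at the limits.

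A region carried a mark if it shared at least 1 bp with a peak. Both classes were counted in the same library, so the replicate number is a block by construction, and the differences entered an exact two-sided sign-flip permutation test over 16 sign patterns. Interval steps were tested on 200 simulated sets with no error. Python 3.11.15, numpy 2.4.6 and pandas 2.3.3 were used. Alternatives covered the number of lists required, gaps, acetylation and repression criteria, score, overlap, width, scale, pairing and replicates left out.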

Additional observations from a re-analysis of the deposited data

Results flagged for a closer look

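Shares were examined in 14 sets of 4 libraries for a value far from the rest, using Dixon's 95% limit. In 4 sets the farthest library passed it. The chance rate of about 1 in 20 holds only for marks that took no part in choosing the regions, here H3K79me2. H3K4me3 replicate 1 overlapped 16.6% of mark-poor regions, against 99.1% to 99.8% in the other H3K4me3 libraries. H3K27me3 replicate 3 overlapped 26.6%, against 0.554% to 1.48% in the others. H3K9me3 replicate 4 overlapped 1.11%, which is 6 regions, against at most 0.185%. H3K79me2 replicate 1 overlapped 3.03% of H3K27me3 regions, against 0.504% to 0.631%. H3K4me3, H3K27me3 and H3K9me3 were used in choosing the regions, and the choice lets a single library stand apart, so those 3 values are a description. The H3K4me3 and H3K27me3 libraries that stood apart were also those with the shortest and the longest total coverage of their mark, 3.12 and 102.3 Mb, and the part of coverage in these values was not tested.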

How the results depend on the processing

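The number of mark-poor regions was 125 with H3K4me3 required in 4 lists, 822 with 2 lists and 1038 with no gap closed, where one region can yield several pieces, and 140 to 556 when 1 replicate number was left out of every mark. In those fits H3K4me3 had to be covered in all 3 remaining lists, so without replicates 2, 3 or 4 every base had to be covered in replicate 1. The lists for the other marks were fewer too, with 1 H3K27ac list used without replicate 3 or 4, and these changes were not separated. With 1 replicate left out, the difference in H3K4me1 from acetylated regions ranged from -37.0 to 4.26 points, with the opposite sign at 1.07, 4.26 and 2.91 without replicates 2, 3 and 4. It also had the opposite sign, at 0.319, with at least 50% of the region covered, and was -39.7 with H3K4me3 in 2 lists; the cause was not tested. The other leave-one-out ranges were -55.7 to -42.1 for H3K79me2 against acetylated regions, -31.1 to -17.8 for H3K4me1 and 5.29 to 21.9 for H3K79me2 against H3K27me3 regions, and 31.6 to 49.7 for H3K4me1 within the class. The smallest p with 3 libraries is 0.25. With no replicate block, an exact permutation over the 70 splits of 4 against 4 gave an adjusted p of 0.0286 for all 5 differences (-35.0, -56.3, -29.1, 5.81 and 31.4 points), but it treats the 2 shares of a library as independent. The mean H3K27ac share of mark-poor regions in replicates 1 and 2 was 4.52% ± 4.57 (SD, n = 2), and 14.5% among peaks at or above the median score of their file, where H3K27ac peaks of replicates 3 and 4 were also fewer. With H3K27ac required absent in all 4 replicates this share is 0 by construction and was not computed. The 4 differences other than that in H3K4me1 from acetylated regions had the same sign in all alternatives run.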

Other observations

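Mark-poor regions were spread over all 19 chromosomes, but chromosome 13 held 43 of them among its 503 H3K4me3 regions (8.55%), against 2.16% to 6.26% on the others. Members less than 100 kb apart were joined into runs. Of the 542 regions, 470 stood alone, 44 formed 22 pairs, 18 formed 6 runs of 3, and 10 formed 2 runs of 5. Both runs of 5 lay on chromosome 13 (mm9), at chr13:21250890-21326452 and chr13:21801789-21846039, and each held 6 H3K4me3 regions of which 1 was acetylated. The first includes the widest member of the class. No H3K79me2 peak of any list overlapped the 10 regions of these runs, which is close to the 88.7% of all mark-poor regions without one. Runs of 3 lay on chromosomes 7, 13 and 17, with 2 on chromosome 13 and 3 on chromosome 17. At chr17:17088199-17201073 no H3K4me3 region in the span was acetylated, and the members lay 170.0 to 282.5 kb from the nearest H3K27ac peak of replicates 3 and 4. None of the 3 had a peak of any other mark in any list. These groupings were sought after the data were seen and were not tested.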
